A study of Mus musculus with 2 samples.

Results

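Bone mineralisation was followed through 10 genes, Alpl, Enpp1, Phex, Spp1, Ibsp, Dmp1, Mepe, Bglap, Bglap2 and Ifitm5, taken by symbol as known genes of bone mineralisation. They were 10 of the 28001 features of the deposited tables, and each symbol matched 1 row. Their transcripts were counted by unique molecular identifiers (UMIs) in single-cell 3' RNA libraries (10x Genomics droplets), made 14 days after amputation from the regrowing digit tip of adult mice. The 2 libraries came from the Lmx1bCreERT2;R26-LSL-TdT line (the Lmx1b library) and the PdgfraCreERT;R26-LSL-TdT line (the Pdgfra library), and both lines carry the tdTomato reporter at Rosa26. All mice were 10 to 12 weeks old and had been given tamoxifen at 3 mg per day for 4 days, with amputation 10 days later. The labels give no number of animals per library and mention no sort of the cells for the reporter. There was 1 library per line, and no unamputated tissue was analysed here, so no test was possible, and line, animals, library and depth cannot be told apart.

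Mineral is laid down on a collagen matrix secreted by osteoblasts, and also on the matrix of hypertrophic cartilage. Whether it forms depends on the balance between phosphate and pyrophosphate outside the cell, which membrane enzymes set, and on acidic proteins that bind to mineral or start its growth. Osteoblast precursors express the early genes of this set, mature osteoblasts the osteocalcin genes, and osteocytes, the cells buried in bone, Dmp1, Phex and Mepe. The regenerating mouse digit tip rebuilds its bone mainly by direct ossification.

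After filtering there were 2744 cells in the Lmx1b library, with a median of 17084 UMIs, and 2309 cells in the Pdgfra library, with a median of 9774 UMIs. The libraries shared 10 barcode sequences, of which 1 was kept in both. Cells were clustered without the 10 genes and without their relative Bglap3, and clusters were named from markers that are not among them, so that the classes were not built from the values described. Mature osteoblast-like cells were the sum of a cluster led by Car3 and a cluster led by Dkk1, 206 cells for the Lmx1b library and 62 for the Pdgfra library. Osteoblast precursor-like cells numbered 137 and 70, and cartilage-like cells 179 and 77, in the Lmx1b and the Pdgfra library. The precursor marker C1qtnf3 stood at 127 CPM (UMIs per 1000000 UMIs of the class) in mature and 1010 CPM in precursor-like cells of the Lmx1b library, and at 77.2 and 911 CPM in those of the Pdgfra library. Of the same list of 8 markers, Adamts18 was also lower in mature cells of both libraries. Panx3, Runx2, Sp7 and Mmp13 were higher there, the first 3 of them by 1.17-fold to 1.95-fold. Kcnt2 and Limch1 stood under 5 CPM. Only C1qtnf3 and Adamts18 of the list thus went with the precursor name. Precursor-like cells also held the cartilage gene Acan at 1940 CPM in the Lmx1b and 1530 CPM in the Pdgfra library. The Sp7 cartilage-like cluster held C1qtnf3 at 837 and 896 CPM, so C1qtnf3 alone did not set precursor-like cells apart from it. The 10 cartilage markers together did set them apart from cartilage-like cells. They summed to 3660 and 3390 CPM in precursor-like cells, against 30900 and 26900 CPM in cartilage-like cells. Summed over 7 endothelial markers, their level came to 25.7 to 44.5 CPM in the bone and cartilage classes, against 7610 CPM in endothelial-like cells of the Lmx1b library and 7290 CPM in those of the Pdgfra library.

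Of the 10 genes, 9 could be measured, which required 5 CPM over both sides of a comparison. Mepe, an osteocyte phosphoglycoprotein, had 39 UMIs in all kept cells of the Lmx1b library and 12 in those of the Pdgfra library, with 2 and 0 UMIs in mature osteoblast-like cells. It was not detectable as a bone signal at this depth, since 0 UMIs in the Pdgfra mature cells allow a level of up to 2.06 CPM (upper end of the exact 95% interval). In brackets after a level or fold stand exact 95% intervals, which hold counting error alone and leave out how cells and animals vary. A difference was called at 2-fold.

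**Figure D1:**
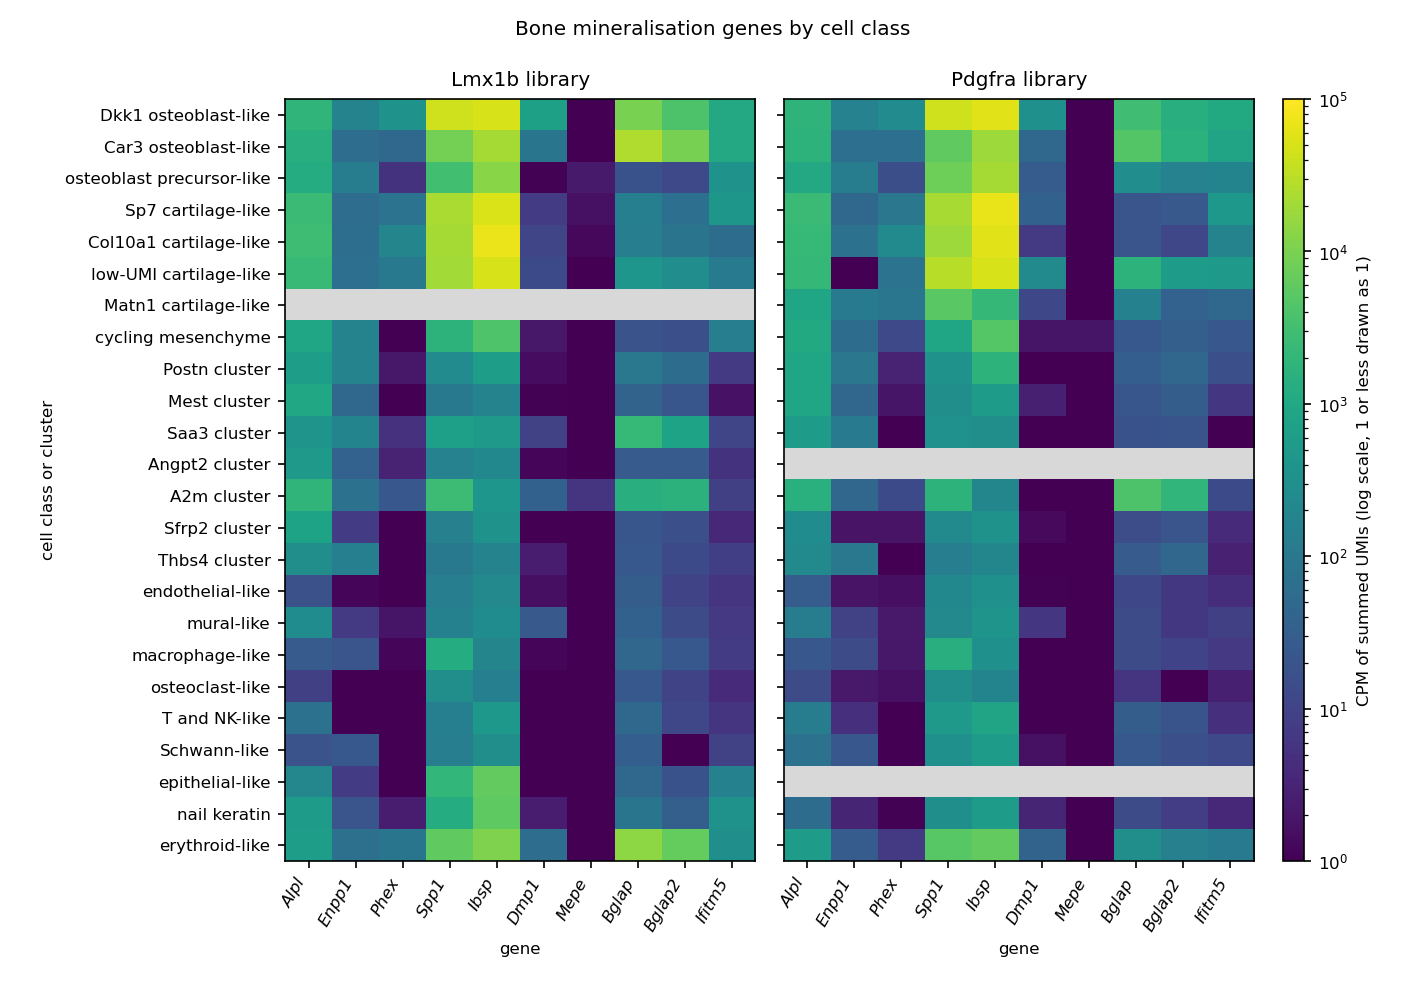
Level of each gene (CPM of UMIs summed over a class, log colour scale, values of 1 or less drawn as 1) in each named cell class, with the Lmx1b library on the left and the Pdgfra library on the right; grey marks classes with under 10 cells. Clusters of mixed markers and unnamed clusters are not drawn. Ibsp and Spp1 are high in both osteoblast-like and all but 1 of the cartilage-like clusters, Bglap and Bglap2 in the osteoblast-like clusters, the A2m cluster and, from a few cells of the Lmx1b library, the Saa3 cluster and erythroid-like cells, and Alpl and Enpp1 extend into the other mesenchymal clusters.

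Ibsp, Spp1 and Ifitm5 were higher in precursor-like than in Postn cells of both libraries, the mesenchymal cluster compared here. Against the mesenchymal cluster led by Postn, a gene of connective tissue matrix, Ibsp stood at 13000 CPM in precursor-like and 620 CPM in Postn cells of the Lmx1b library, a fold between 20.1 and 21.9, and at 21500 and 1680 CPM in those of the Pdgfra library, a fold of 12.8 (12.3 to 13.3). Spp1 was 11.5-fold and 21.4-fold higher and Ifitm5 49.3-fold and 10.5-fold. For Spp1 this does not hold for all mesenchyme, since the A2m cluster of the Lmx1b library, given below, lay near the precursor level. Alpl stood at 1230 and 631 CPM in the Lmx1b and 1020 and 855 CPM in the Pdgfra library, and so was shared with the Postn cells. Of the 10 genes 7 were measured in the Lmx1b library, with 3 higher and 2 lower, where 3.35% of all genes were higher and 4.47% lower. The Pdgfra comparison measured 9, with 7 higher and 0 lower, where 3.89% were higher and 4.48% lower. The 2 lower in the Lmx1b library were Bglap and Bglap2, both higher in the Pdgfra library, where Phex and Dmp1 were the others, at 16.2 and 28.7 CPM in precursor-like and 3.04 and 0.608 CPM in Postn cells.

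From precursor to mature osteoblast-like cells the folds of the 9 measured genes were graded, from similar levels in both stages to far higher levels in the mature stage. In the Lmx1b library 7 of 9 were at least 2-fold higher in mature than in precursor-like cells and 0 lower, where 3.14% of 8959 measured genes were higher and 9.47% lower. For the Pdgfra library 6 of 9 were higher and 0 lower, where 3.36% of 9220 genes were higher and 8.92% lower. The median fold of the genes was 8.43 for the Lmx1b and 5.45 for the Pdgfra library, and that of all measured genes 0.801 and 0.860.

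The pyrophosphate enzymes were already present in precursors. Alpl, the tissue-nonspecific alkaline phosphatase that removes pyrophosphate, stood at 1640 CPM (1610 to 1680) in mature and 1230 CPM (1200 to 1260) in precursor-like cells of the Lmx1b library, and at 1750 CPM and 1020 CPM in those of the Pdgfra library. Its folds of 1.33 (1.29 to 1.38) and 1.72 (1.63 to 1.80) stayed under the 2-fold call in both libraries. Enpp1, which makes extracellular pyrophosphate, stood at 117 CPM in mature and 128 CPM in precursor-like cells of the Lmx1b library, and at 118 and 130 CPM in those of the Pdgfra library. Its folds were 0.913 (0.817 to 1.02) and 0.911 (0.767 to 1.08), so that both intervals include 1.

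Phex, a membrane peptidase whose loss causes X-linked hypophosphataemia, behaved otherwise. It stood at 205 CPM (193 to 217) in mature and 5.33 CPM (3.45 to 7.87) in precursor-like cells of the Lmx1b library, a fold of 38.5 (25.9 to 59.7). In the Pdgfra library the levels were 164 CPM (146 to 184) and 16.2 CPM (11.9 to 21.5), a fold of 10.1 (7.44 to 14.0). Phex was thus at least 2-fold higher in mature cells in both libraries. At a fixed depth of 3000 UMIs per cell, it was found in 30.3% of mature and 1.56% of precursor-like cells of the Lmx1b library, and in 37.3% and 1.52% of those of the Pdgfra library.

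Ibsp and Spp1 were abundant at both stages. Ibsp, bone sialoprotein, which starts mineral crystals in bone matrix, reached 34800 CPM in mature and 13000 CPM in precursor-like cells of the Lmx1b library, and 39300 and 21500 CPM in those of the Pdgfra library. Its fold was 2.68 (2.65 to 2.70) in the Lmx1b and 1.82 (1.80 to 1.84) in the Pdgfra library, on either side of the call. The median cell carried 26200 CPM in mature and 8300 CPM in precursor-like cells of the Lmx1b library, and 31200 and 8330 CPM in those of the Pdgfra library, so precursors of the libraries lay closer together by their median cell than by their sum.

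Spp1, osteopontin, a phosphoprotein that binds mineral and integrins, stood at 25700 CPM in mature and 3050 CPM in precursor-like cells of the Lmx1b library, a fold of 8.43 (8.29 to 8.58). The Pdgfra library had it at 24600 and 7740 CPM, a fold of 3.18 (3.13 to 3.23). The mature levels of the libraries lay close together and the precursor levels apart. Of the Spp1 UMIs of Pdgfra precursor-like cells, 77.2% came from the 10 cells with the most UMIs of the gene, out of 70.

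Dmp1, dentin matrix protein 1, a gene of late osteoblasts and osteocytes, stood at 377 CPM (361 to 393) in mature and 1.07 CPM (0.346 to 2.49) in precursor-like cells of the Lmx1b library, a fold of 354 (151 to 1090) that rests on 5 precursor UMIs. In the Pdgfra library it stood at 191 CPM (171 to 212) and 28.7 CPM (22.9 to 35.4), a fold of 6.65 (5.23 to 8.54). Few cells carried it: 36.9% of mature cells of the Lmx1b library and 22.6% of those of the Pdgfra library had a UMI, and 10 cells held 67.7% and 98.8% of its mature UMIs.

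Bglap and Bglap2, the osteocalcin genes, differed most between the stages in the Lmx1b library. Bglap stood at 18000 CPM (17900 to 18100) in mature and 17.9 CPM (14.3 to 22.2) in precursor-like cells there, a fold of 1010 (812 to 1260). Bglap2 stood at 6860 and 12.6 CPM, a fold of 545 (423 to 717). In the Pdgfra library Bglap stood at 3730 CPM in mature and 277 CPM in precursor-like cells, a fold of 13.5 (12.5 to 14.5), and Bglap2 at 1500 and 166 CPM, a fold of 9.08 (8.25 to 10.0).

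The osteocalcin levels rest on few cells. In mature cells, 10 of 206 cells held 45.6% of the Bglap UMIs of the Lmx1b library, and 10 of 62 held 91.6% of those of the Pdgfra library. In Pdgfra precursor-like cells 10 of 70 cells held 98.5%, 1 cell reaching 13600 CPM with a median cell at 0. At 3000 UMIs per cell Bglap was found in 64.1% of mature and 7.81% of precursor-like cells of the Lmx1b library, and in 42.4% and 6.06% of those of the Pdgfra library. Endothelial-like cells, which should lack the gene, had it in 8.80% and 4.80% at that depth, with median depths of 12102 and 11963 UMIs before thinning, against 38134 and 41236 UMIs in precursor-like cells. No expression in precursor-like cells is read from these shares, since they lay near those of endothelial-like cells and the depths before thinning differed.

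Reads of Bglap and Bglap2 are hard to keep apart. Both lie on chromosome 3 (GRCm38) on the minus strand, Bglap at chr3:88383501-88384464 and Bglap2 at chr3:88377736-88378699, beside Bglap3, the 3 following one another within 15849 bases. The last 91 transcribed bases of Bglap and Bglap2 are the same, and their last 400 differ at 2 positions, so 3' reads could be assigned to either and the split between them is uncertain. Across single mature cells the ranks of Bglap and Bglap2 went together, with Spearman's rho of 0.89 over 206 cells and 0.84 over 62 cells, as a description.

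Ifitm5, a membrane protein of osteoblasts also named BRIL, stood at 1040 CPM (1010 to 1070) in mature and 352 CPM (336 to 370) in precursor-like cells of the Lmx1b library, a fold of 2.95 (2.79 to 3.12). In the Pdgfra library it stood at 976 CPM (930 to 1020) and 179 CPM (164 to 195), a fold of 5.45 (4.94 to 6.02). Unlike the osteocalcin genes it was found well above background in precursors, in 31.2% of those of the Lmx1b and 16.7% of those of the Pdgfra library at 3000 UMIs, against 2.10% and 0.873% of endothelial-like cells. Its direction between the stages depended on the cell filter: with a floor of 1000 genes and a ceiling of 5% mitochondrial UMIs, which also changed the clusters, the log2 difference was -0.45 for the Lmx1b and -0.04 for the Pdgfra library.

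**Figure D2:**
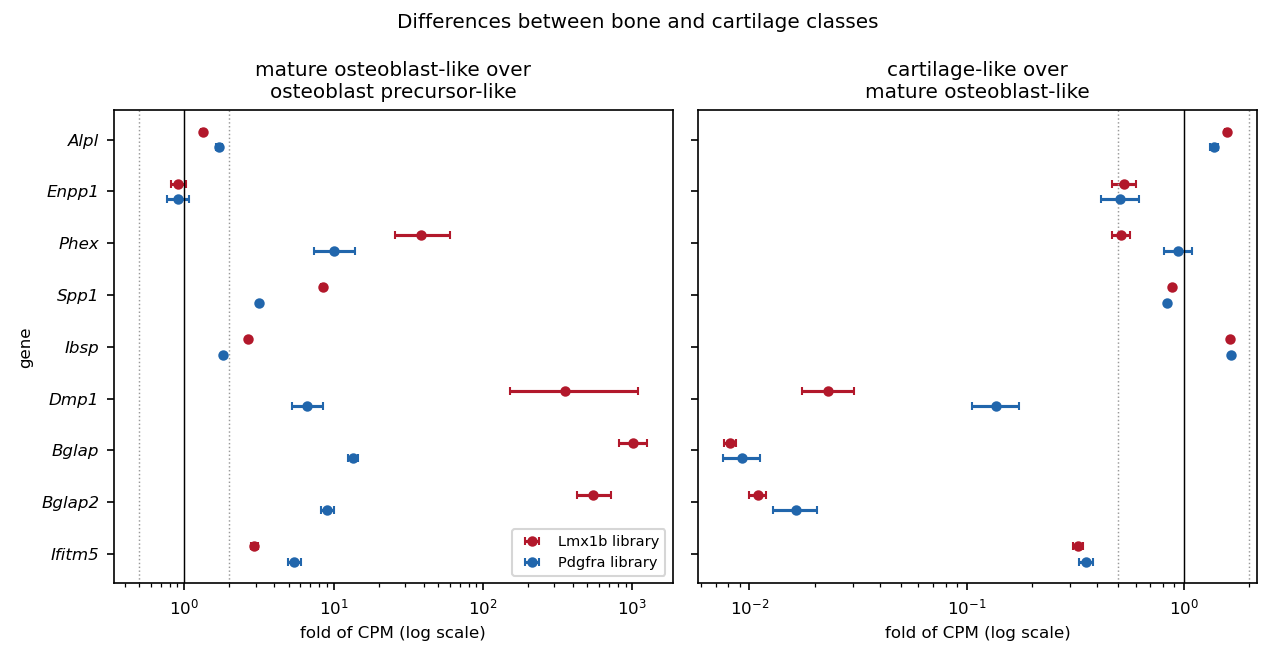
Fold of CPM between classes (log axis) for the 9 measured genes in each library, mature osteoblast-like over precursor-like cells on the left and cartilage-like over mature osteoblast-like cells on the right; bars are exact 95% counting intervals and dotted lines mark 2-fold either way. Bglap, Bglap2 and Dmp1 lie farthest to the right on the left side in the Lmx1b library, at 1010, 545 and 354, and farthest to the left on the right side in both libraries.

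RUNX factors, the master regulators of osteoblasts, bind the letters ACCACA. Sequence is shown upstream of Bglap, Spp1 and Dmp1, picked from the 5 genes that held these letters. Enpp1, alike at both stages, and Mepe held them too and are not shown. Phex and Ifitm5, higher in mature cells, did not hold them, and no link between the letters and stage is read. The windows are the 250 bases before the annotated start (RefSeq, GRCm38.p6), in the direction of transcription, in lower case with the RUNX letters in capitals. They lie at chr3:88384467-88384716 on the minus strand for Bglap, at chr5:104434861-104435110 on the plus strand for Spp1, and at chr5:104202367-104202616 on the plus strand for the second annotated start of Dmp1.
Bglap: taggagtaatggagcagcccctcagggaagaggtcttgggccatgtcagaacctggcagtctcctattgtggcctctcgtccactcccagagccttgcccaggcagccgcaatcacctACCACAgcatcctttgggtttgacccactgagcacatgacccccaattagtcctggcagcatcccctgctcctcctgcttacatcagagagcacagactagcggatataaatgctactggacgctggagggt
Spp1: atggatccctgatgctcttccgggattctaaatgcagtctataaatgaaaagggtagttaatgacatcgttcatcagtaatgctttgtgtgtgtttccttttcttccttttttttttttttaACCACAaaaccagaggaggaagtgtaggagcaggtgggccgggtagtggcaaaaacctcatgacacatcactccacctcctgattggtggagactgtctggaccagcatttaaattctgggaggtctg
Dmp1: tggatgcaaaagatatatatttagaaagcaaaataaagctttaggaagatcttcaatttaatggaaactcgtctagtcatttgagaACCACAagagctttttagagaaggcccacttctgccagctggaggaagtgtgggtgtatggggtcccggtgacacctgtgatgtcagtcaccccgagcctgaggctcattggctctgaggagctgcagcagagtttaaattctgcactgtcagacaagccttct
The letters begin at base -132 of Bglap, -128 of Spp1 and -164 of Dmp1, counted from the start site. Over windows of 300 bases, from 250 before to 50 after the start, on both strands (ACCACA or TGTGGT), 5 of the 12 entries of the 9 genes with an entry held them, 1 each of Enpp1, Spp1, Dmp1, Mepe and Bglap, against 16.8% of 32851 promoters of all genes. Ibsp, Alpl, Phex and Ifitm5 had no match in their windows. A match is a description of letters and not of binding.
Dmp1, Ibsp, Mepe and Spp1 are neighbours, 4 protein-coding genes in a row within 238438 bases of chromosome 5 (GRCm38). Their levels did not go as a block: Ibsp was at 13000 CPM and Spp1 at 3050 CPM in Lmx1b precursor-like cells, where Dmp1 was at 1.07 CPM and Mepe at 2.34 CPM.

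The cells of the 2 osteoblast classes were also put in a finer order. Cells were ranked by a score of mature minus precursor markers, none of them among the 10 genes. The precursor markers include Panx3, Runx2, Sp7 and Mmp13, which were higher in mature than in precursor-like cells of both libraries. Mmp13 stood at 425 and 306 CPM in the Car3 cluster, against 32.2 and 75.2 CPM in precursor-like cells. A low score is thus not particular to precursor-like cells. The ranked cells were cut into quartiles within each library, 85 or 86 cells per quartile for the Lmx1b and 33 for the Pdgfra library. From the first to the fourth quartile, the Dkk1 cluster gave 2, 3, 38 and 52 cells in the Lmx1b and 0, 1, 6 and 25 in the Pdgfra library. The Car3 cluster gave 23, 22, 33 and 33, and 5, 11, 8 and 6. The upper quartiles thus held most of the Dkk1-cluster cells, and stage and cluster cannot be told apart in this order. Spp1 stood at 4290, 5520, 25300 and 31900 CPM from the first to the fourth quartile of the Lmx1b library, and at 4820, 3880, 15200 and 35000 CPM in the Pdgfra library. The main step lay between the second and the third quartile in both. Phex stood at 17.9, 28.1, 180 and 278 CPM in the Lmx1b library and at 2.32, 7.82, 87.2 and 206 CPM in the Pdgfra library, higher at each step.

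Ibsp changed less, at 13100, 17300, 36300 and 37500 CPM in the Lmx1b library and 15700, 23500, 25100 and 52000 CPM in the Pdgfra library. Bglap stood at 3350, 2210, 8530 and 29100 CPM in the Lmx1b library and at 58.8, 426, 523 and 5860 CPM in the Pdgfra library. Its highest quartile was the fourth in both. The first Lmx1b quartile held 23 cells of the Car3 cluster beside 61 precursor-like cells.

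Ifitm5 was higher at each step, at 285, 546, 1030 and 1170 CPM in the Lmx1b library and 84.3, 273, 456 and 1200 CPM in the Pdgfra library. Alpl stayed between 1300 and 1760 CPM in the Lmx1b quartiles and between 1110 and 1710 CPM in the Pdgfra quartiles. Enpp1 stayed between 114 and 133 CPM and between 77.3 and 174 CPM. Dmp1 was at 71.2, 43.1, 428 and 369 CPM in the Lmx1b library and 3.10, 1.74, 90.5 and 288 CPM in the Pdgfra library, with the step at the third quartile, like Spp1.

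**Figure D3:**
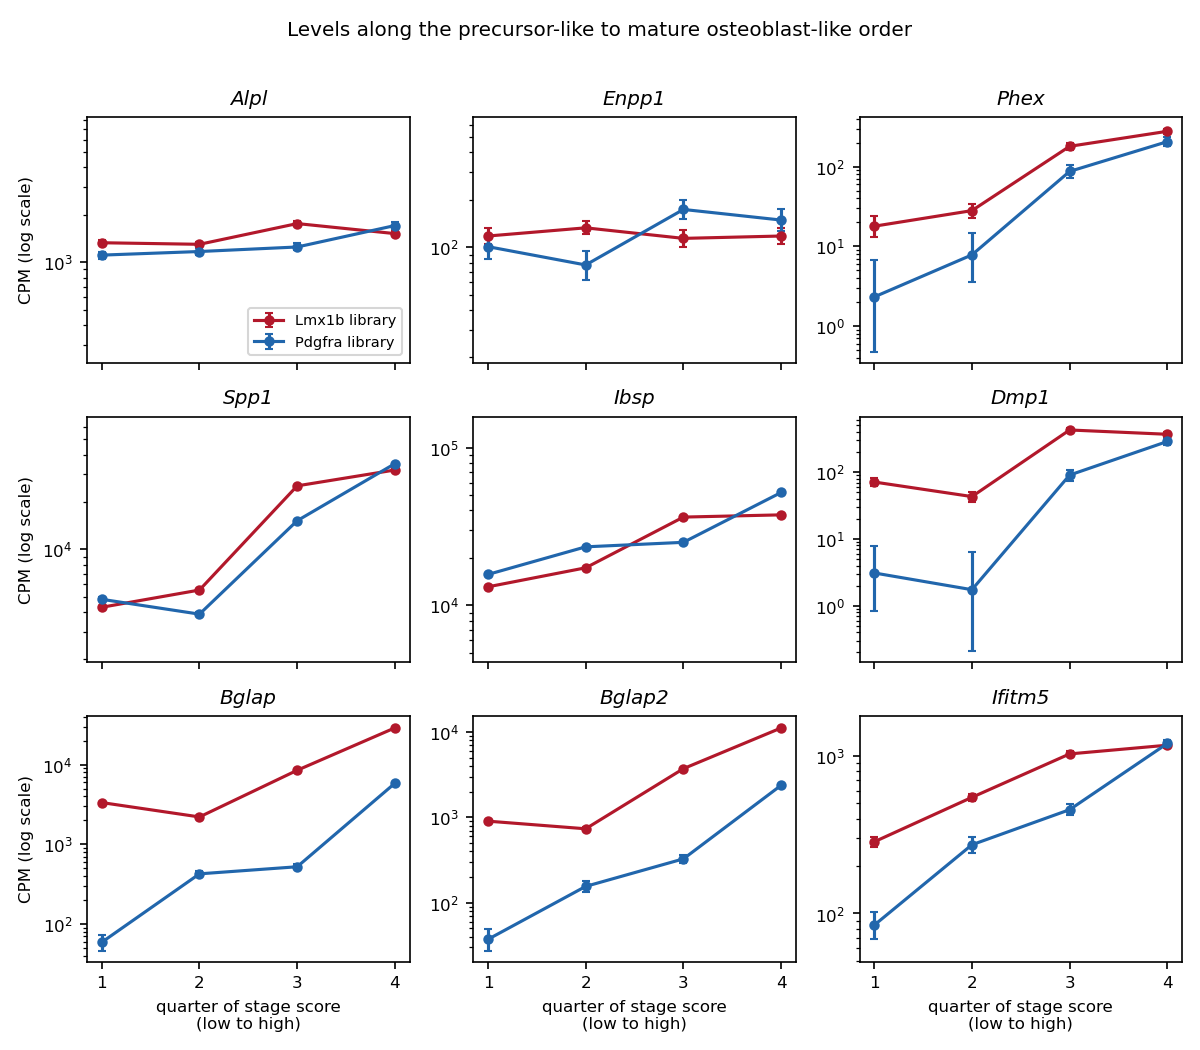
Level of each gene (CPM, log axis) in 4 quartiles of the stage score, from low to high, over the precursor-like and mature osteoblast-like cells of each library. Bars are exact 95% counting intervals. Alpl and Enpp1 change least, Spp1, Phex and Dmp1 step up at the third quartile, and Bglap and Bglap2 are highest in the fourth.

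The mature class was not uniform, and the 10 genes divided between its 2 clusters. The Dkk1 cluster, 95 cells for the Lmx1b and 32 for the Pdgfra library, held more Spp1, Ibsp, Phex, Dmp1 and Enpp1, and the Car3 cluster, 111 and 30 cells, held more Bglap. The Dkk1 cluster was also the one with the osteocyte gene Sost, at 67.8 CPM in the Lmx1b and 12.2 CPM (11 UMIs) in the Pdgfra library. Other osteocyte markers varied there: Irx5 stood at 304 and 245 CPM, Npy at 0.721 and 0 CPM, and Fgf23 at 0 CPM in both. Pdpn and Cd44 stood at 38.2 and 117 CPM in the Lmx1b library, against 25.5 and 108 CPM in all mature cells. In the Pdgfra library they were lower, at 18.8 and 55.3 CPM against 24.6 and 73.9 CPM. No osteocyte identity is read from these values. For the Lmx1b library 5 of 9 genes were at least 2-fold higher in the Dkk1 than in the Car3 cluster and 2 lower, where 3.16% of all measured genes were higher and 10.5% lower. For the Pdgfra library 5 were higher and 0 lower, where 4.91% of all genes were higher and 19.6% lower.

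Spp1 stood at 43400 CPM in the Dkk1 and 9050 CPM in the Car3 cluster of the Lmx1b library, a fold of 4.80 (4.73 to 4.86), and at 42900 and 5940 CPM in those of the Pdgfra library, a fold of 7.21 (7.01 to 7.43). Every Dkk1 cell carried it, from 2610 CPM upwards in the Lmx1b and from 4850 CPM in the Pdgfra library, while the Car3 clusters reached down to 0. Dmp1 stood at 682 and 89.3 CPM in the Dkk1 and Car3 clusters of the Lmx1b library, and at 329 and 48.7 CPM in those of the Pdgfra library, folds of 7.64 (6.71 to 8.72) and 6.76 (4.90 to 9.54). Phex stood at 370 and 49.2 CPM in the Lmx1b and 259 and 66.8 CPM in the Pdgfra library, folds of 7.52 and 3.87. The folds of Enpp1 were 2.86 and 2.45, and those of Ibsp 2.38 and 3.22.

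Bglap ran the other way, at 9970 CPM in the Dkk1 and 25600 CPM in the Car3 cluster of the Lmx1b library, 2.56-fold lower, and at 2870 and 4620 CPM in those of the Pdgfra library, 1.61-fold lower. The median Dkk1 cell and the median Car3 cell were nearly alike, at 758 and 797 CPM in the Lmx1b library, and at 53.1 and 42.7 CPM in the Pdgfra library, so the difference lies in the cells of highest level. Ifitm5 and Alpl stayed within 1.30-fold between the clusters in both libraries. The cartilage gene Col2a1 moved with the first set, at 2130 CPM in the Dkk1 and 22.8 CPM in the Car3 cluster of the Lmx1b library and 775 and 38.5 CPM in those of the Pdgfra library, and its part in these differences was not tested. Spp1, Ibsp and Dmp1 depended on which cluster stood for the mature stage: in the Pdgfra library the log2 difference from precursor-like cells was -0.38 for Spp1, -0.22 for Ibsp and 0.77 for Dmp1 with the Car3 cluster alone. With that cluster 6 genes were called higher and 1, Enpp1, lower in the Lmx1b library, where 2.71% and 7.04% of all genes were, and 4 higher and 0 lower in the Pdgfra library, where 4.01% and 8.19% were.

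Across single mature cells the ranks followed this division only in part. Those of Bglap and Ibsp went opposite ways, with rho of -0.38 over the 206 Lmx1b and -0.31 over the 62 Pdgfra cells, and so did those of Bglap and Alpl, with -0.39 and -0.34. Bglap did not run against Spp1 (0.27 and 0.18) or Dmp1 (0.33 and 0.16), and with Phex rho was 0.24 and -0.01. Spp1 went with Phex (0.55 and 0.67), with Dmp1 (0.57 and 0.48) and with Ibsp (0.43 and 0.64). These cells share a library and differ in depth, and the values are descriptions.

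**Figure D4:**
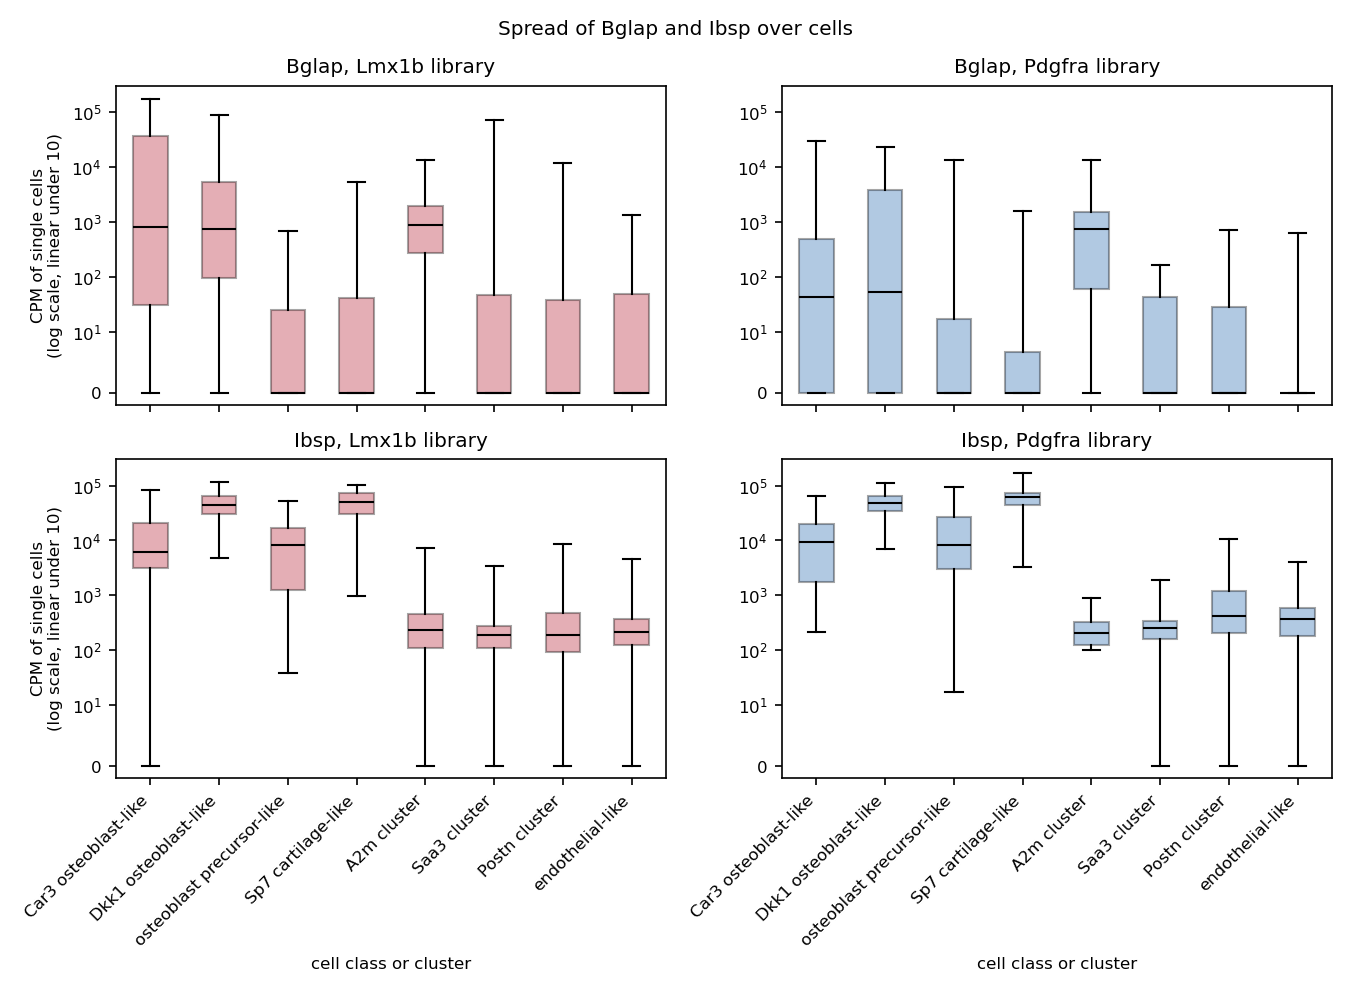
CPM of single cells (log axis, linear under 10) for Bglap above and Ibsp below, Lmx1b library on the left; boxes span the middle of the cells with the median as a line, and whiskers run from the lowest to the highest cell. Bglap spreads from 0 to 175000 CPM within the Lmx1b Car3 cluster, and the A2m cluster has a median Bglap of 869 and 762 CPM while its Ibsp lies at the level of endothelial-like cells.

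Cartilage-like cells expressed much of the set but little osteocalcin. Ibsp stood at 56900 CPM in cartilage-like and 34800 CPM in mature osteoblast-like cells of the Lmx1b library, and at 64800 and 39300 CPM in those of the Pdgfra library, folds of 1.63 (1.62 to 1.64) and 1.65 (1.64 to 1.66). Alpl stood at 2600 and 1640 CPM in the Lmx1b and 2410 and 1750 CPM in the Pdgfra library, folds of 1.58 and 1.38. Both were the highest of the 3 bone and cartilage classes in either library, short of the 2-fold call against mature cells. Of all Ibsp UMIs in kept cells, cartilage-like cells held 54.7% for the Lmx1b and 48.9% for the Pdgfra library, more than mature cells with 30.3% and 16.6%.

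Spp1 stood at 22600 CPM in cartilage-like and 25700 CPM in mature cells of the Lmx1b library, and at 20700 and 24600 CPM in those of the Pdgfra library, folds of 0.881 and 0.841. Phex was 0.515-fold in the Lmx1b and 0.942-fold in the Pdgfra library, and Enpp1 0.532-fold and 0.508-fold, none past the call. In each library 4 of 9 genes were at least 2-fold lower in cartilage-like than in mature cells and 0 higher, where 5.85% and 6.61% of all measured genes were lower and 5.59% and 6.56% higher. The 4 were Dmp1, Bglap, Bglap2 and Ifitm5 in both.

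Bglap stood at 147 CPM (138 to 157) in cartilage-like cells and 18000 CPM in mature cells of the Lmx1b library, 122-fold lower, and at 34.5 CPM (28.4 to 41.6) and 3730 CPM in those of the Pdgfra library, 108-fold lower. Bglap2 was 91.7-fold and 61.5-fold lower. Dmp1 stood at 8.72 and 377 CPM in the Lmx1b library, 43.2-fold lower, and was 7.33-fold lower in the Pdgfra library. Ifitm5 was intermediate, at 338 and 1040 CPM in the Lmx1b and 345 and 976 CPM in the Pdgfra library, 3.07-fold and 2.82-fold lower. Most of the little Bglap in cartilage-like cells came from few of them, 74.3% and 81.8% from 10 cells.

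The cartilage-like class was not free of osteoblast markers. Its 10 mature osteoblast markers summed to 2550 CPM in the Lmx1b and 2760 CPM in the Pdgfra library, close to the 2970 and 3030 CPM of mature cells. Its 10 cartilage markers summed to 30900 and 26900 CPM, against 3210 and 2700 CPM in mature cells. The part of cells of mixed identity in the shared levels was not tested. The median depths were 39852 and 41513 UMIs in cartilage-like cells and 26340 and 25308 UMIs in mature cells.

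Within cartilage the hypertrophic end differed from the rest in Phex and Ifitm5. In the cluster led by Col10a1, the collagen of hypertrophic cartilage (36 cells for the Lmx1b and 21 for the Pdgfra library), Phex stood at 185 CPM against 79.5 CPM in the Sp7 cartilage-like cluster of the Lmx1b library, and at 241 against 96.5 CPM in the Pdgfra library, folds of 2.32 (1.98 to 2.72) and 2.50 (2.08 to 3.02). Ifitm5 stood at 57.6 CPM in the Col10a1 and 434 CPM in the Sp7 cluster of the Lmx1b library, 7.53-fold lower, and at 169 and 462 CPM in those of the Pdgfra library, 2.73-fold lower. In all, 1 of 9 genes was higher and 1 lower in the Lmx1b library, where 4.65% of all genes were higher and 9.90% lower. For the Pdgfra library 1 was higher and 3 lower, where 5.99% were higher and 4.52% lower, the other 2 being Dmp1 and Bglap2 at under 40 CPM on both sides. Alpl, Ibsp, Spp1 and Bglap stayed within 1.34-fold in both libraries.

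A further cartilage-like cluster, with the cartilage gene Matn1 and also Col10a1 among its leading genes, held 47 cells of the Pdgfra library (2.04% of its cells). It held 0 cells of the Lmx1b library and was kept out of the class. Its Ibsp was 2110 CPM, its Spp1 5140 CPM and its Alpl 915 CPM, lower than in the other cartilage-like cells of the library. Of its Spp1 UMIs, 98.1% came from 10 cells. Its median depth was 3511 UMIs.

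Outside bone and cartilage the abundant genes were found in nearly every named class, in most at a low level. Clusters of mixed markers (31 cells of the Lmx1b and 45 of the Pdgfra library) and unnamed clusters (274 and 455 cells) also count as outside. The mixed clusters of the Pdgfra library held 59114 of its 422536 Ibsp UMIs and 29308 of its 177079 Spp1 UMIs. In both libraries 9 of 9 measured genes were at least 2-fold higher in mature cells than in every class compared here. Of all genes, 2.10% and 2.24% were. The classes were endothelial-like, mural-like, macrophage-like, osteoclast-like, T and NK-like, Schwann-like and, in the Lmx1b library, epithelial-like cells. Erythroid-like cells and the nail keratin cluster were not among them. In erythroid-like cells of the Lmx1b library the sums of Bglap, given below, and Bglap2 lay within 2-fold of mature cells. Ibsp stood at 226 CPM (216 to 237) in endothelial-like cells of the Lmx1b library and 327 CPM (309 to 346) in those of the Pdgfra library, and 94.2% and 95.9% of these cells had a UMI. Barcodes under 500 genes, taken as a measure of free RNA, held it at 4070 and 5740 CPM.

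The ratio of the genes to one another was compared, since UMIs from 1 source of free RNA keep 1 ratio in every class. In endothelial-like cells there were 61.0 Spp1 UMIs per 100 Ibsp UMIs (56.6 to 65.7) in the Lmx1b and 66.5 (60.8 to 72.7) in the Pdgfra library, against 59.3 and 63.2 in barcodes under 500 genes. Alpl stood at 7.83 and 8.62 per 100 Ibsp UMIs, against 7.93 and 6.69. These ratios lay on or near those of the small barcodes in both libraries. Bglap did not in the Lmx1b library, with 13.2 per 100 Ibsp UMIs in endothelial-like cells against 41.3 in the small barcodes, while in the Pdgfra library the values were 3.79 and 3.53.

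Some classes stood off these ratios for 1 gene. Macrophage-like cells held Spp1 at 1250 CPM in the Lmx1b and 1370 CPM in the Pdgfra library, 670 (616 to 729) and 431 (398 to 467) UMIs per 100 of Ibsp, 11.3 and 6.82 times the ratio of the small barcodes. Osteoclast-like cells had 206 and 163, 3.47 and 2.59 times that ratio, at 302 and 300 CPM. Of the macrophage-like Spp1 UMIs, 69.0% and 52.6% came from 10 cells, out of 151 and 136.

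Mural-like cells, pericytes and smooth muscle, held Alpl at 273 CPM in the Lmx1b and 130 CPM in the Pdgfra library, 103 and 34.1 UMIs per 100 of Ibsp, 12.9 and 5.10 times the small-barcode ratio. Their Spp1 ratio, 57.9 and 58.0, was near that of the small barcodes. Their Dmp1 was off it, at 11.7 and 3.59 times the ratio. In the Lmx1b library 1 mural-like cluster of 61 cells led by Mstn stood at 85.3 CPM of Dmp1, with 98.8% of the UMIs in 10 cells.

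Of the 9 measured genes Enpp1 had the largest share of its UMIs outside bone and cartilage. It came to 53.9% for the Lmx1b and 53.8% for the Pdgfra library. It stood at 169 and 96.0 CPM in the mesenchymal cluster led by Postn and at 142 and 99.6 CPM in that led by Thbs4, beside 117 and 118 CPM in mature osteoblast-like cells. Macrophage-like cells had 21.2 and 13.7 CPM, 17.2 and 9.88 times the small-barcode ratio to Ibsp, and Schwann-like cells stood at 12.4 and 9.19 times it. Alpl likewise had 34.3% and 49.0% of its UMIs outside bone and cartilage, while Phex had 5.72% and 23.8%. In the Pdgfra library the clusters of mixed markers held 3981 of the 27139 Alpl UMIs and 168 of the 1093 Phex UMIs.

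In a few classes the sums were set by a handful of cells. Epithelial-like cells of the Lmx1b library had Ibsp at 6180 CPM, with 97.6% of the UMIs in 10 of 99 cells, and the nail keratin cluster had 5860 CPM there, with 96.3% in 10 of 76 cells, against 566 CPM in the Pdgfra library. Erythroid-like cells held Bglap at 14200 CPM in the Lmx1b library, with 99.0% in 10 of 63 cells, and 291 CPM in the Pdgfra library. In the cluster led by Saa3, 10 of 60 Lmx1b cells held 99.5% of the Bglap UMIs. The part of doublets in these sums was not tested.

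**Figure D5:**
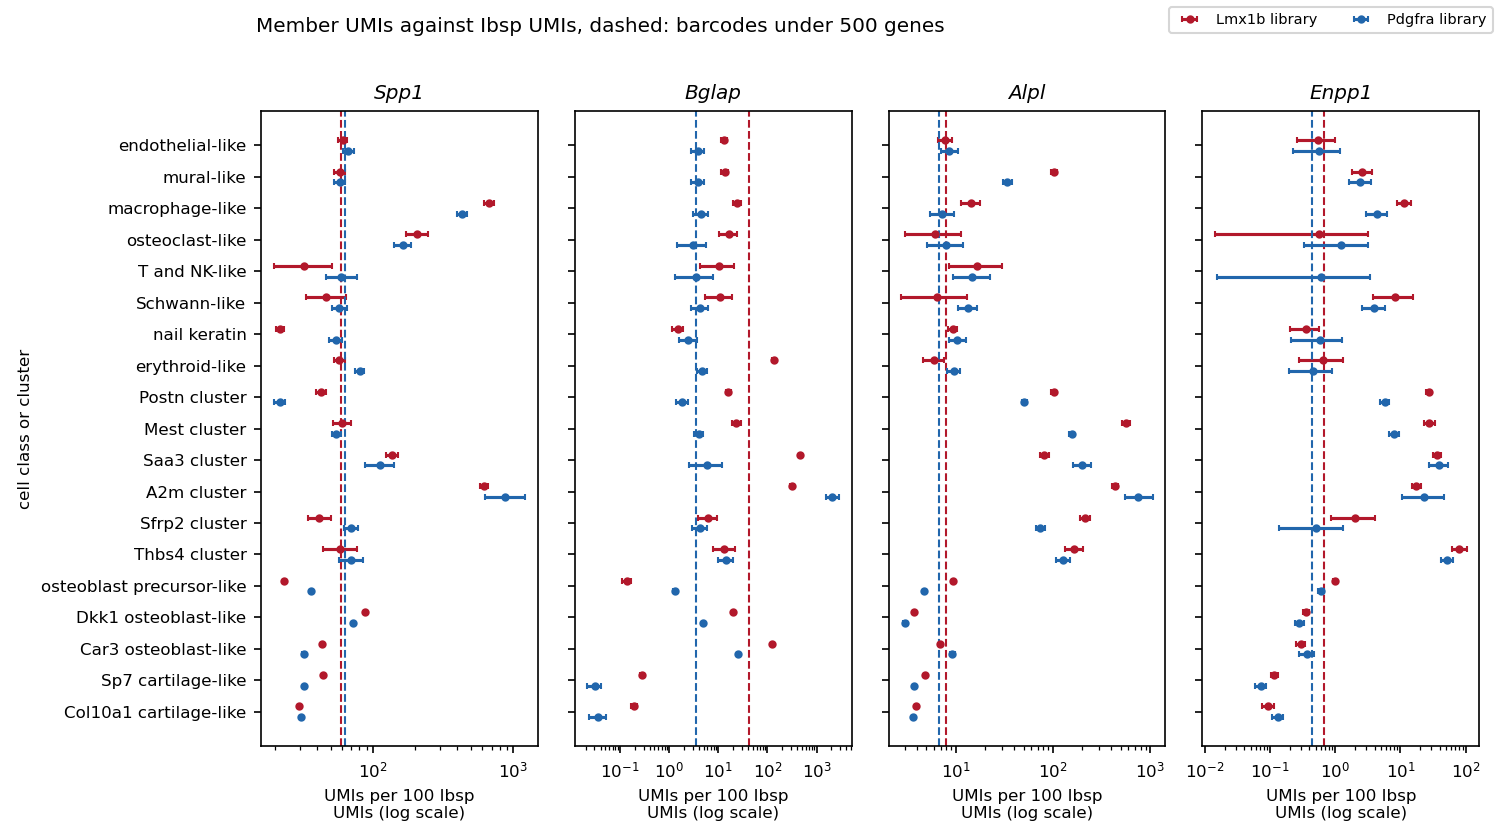
UMIs of Spp1, Bglap, Alpl and Enpp1 per 100 Ibsp UMIs (log axes) in each class and library, with exact 95% counting intervals; dashed lines mark the ratio in barcodes under 500 genes of the same library, and classes with 0 UMIs of the gene are left out. Endothelial-like cells lie on the dashed line for Spp1 and Alpl, macrophage-like cells lie to its right for Spp1, mural-like cells for Alpl, and the A2m cluster for all 4 genes.

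A mesenchymal cluster led by A2m, 96 cells of the Lmx1b and 10 of the Pdgfra library, held osteocalcin with little Ibsp and Ifitm5. Bglap stood there at 1340 CPM in the Lmx1b and 4020 CPM in the Pdgfra library, and Bglap2 at 1660 and 1960 CPM. Bglap was in 91.7% and 80.0% of its cells, with a median cell at 869 and 762 CPM. In the Lmx1b library 10 of its 96 cells held 40.5% of the Bglap UMIs. The Pdgfra sum of 10 cells lay far above its upper quartile of 1520 CPM, with the highest cell at 13200 CPM, and so rests on the few highest cells, as do the ratio and fold made from it. Its Ibsp was 425 and 194 CPM, with a median cell at 239 and 203 CPM, against 215 and 367 CPM in endothelial-like cells. Bglap thus came to 316 and 2070 UMIs per 100 of Ibsp, against 41.3 and 3.53 in barcodes under 500 genes.

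As counted, there were 123 Bglap2 UMIs per 100 of Bglap (117 to 129) in the Lmx1b cluster, against 38.1 in mature osteoblast-like cells, and 48.8 and 40.3 in those of the Pdgfra library. The split of reads between these genes is uncertain, as said above, and nothing is read from these ratios. The cluster expressed Runx2, the early osteoblast transcription factor, at 285 and 352 CPM, Mmp13 at 3360 and 1050 CPM and Alpl at 1850 and 1480 CPM, while Ifitm5 was at 8.77 and 13.5 CPM. Spp1 stood at 2630 and 1680 CPM, with 70.5% of the Lmx1b UMIs in 10 cells. Against the Postn cluster, 6 of 9 measured genes were at least 2-fold higher and 1 lower in the Lmx1b library, where 14.2% of all genes were higher and 6.16% lower. For the Pdgfra library 3 of 7 were higher and 2 lower, where 14.1% and 11.1% of all genes were. Bglap was 13.5-fold and 130-fold higher there and Enpp1 0.443-fold and 0.470-fold.

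The libraries were alike in most of the set and apart in osteocalcin. In mature cells 2 of 9 genes were at least 2-fold higher in the Lmx1b library and 0 lower, where 1.57% of all genes were higher and 1.63% lower. Bglap stood at 18000 CPM in the Lmx1b and 3730 CPM in the Pdgfra library, a fold of 4.82 (4.70 to 4.94), and Bglap2 at 6860 and 1500 CPM, a fold of 4.56 (4.39 to 4.74). The median mature cell had 778 CPM of Bglap in the Lmx1b and 46.3 CPM in the Pdgfra library, and 81.6% and 59.7% of mature cells had a UMI.

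The same direction held in both mature clusters, with Bglap folds of 3.48 in the Dkk1 and 5.53 in the Car3 cluster, and in cartilage-like cells, with 4.26 (3.49 to 5.24) at far lower levels. There 2 of 9 genes were higher and 1 lower, where 1.16% and 2.21% of all genes were. Barcodes under 500 genes held Bglap at 1680 CPM in the Lmx1b and 203 CPM in the Pdgfra library. Bglap3, the neighbouring gene and not among the 10, stood at 347 and 12.9 CPM in mature cells, a fold of 27.0 (17.9 to 42.6). Dmp1 was 1.98-fold higher (1.76 to 2.22), and Alpl, Enpp1, Phex, Spp1, Ibsp and Ifitm5 lay between 0.887-fold and 1.25-fold.

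In precursor-like cells 5 of 9 genes, Phex, Spp1, Dmp1, Bglap and Bglap2, were at least 2-fold lower in the Lmx1b library and 0 higher, where 1.45% of all genes were lower and 1.03% higher. The Lmx1b over Pdgfra folds were 0.329 for Phex, 0.394 for Spp1, 0.0372 for Dmp1, 0.0646 for Bglap and 0.0759 for Bglap2. These are not stable. The Pdgfra values came from few cells, and Dmp1, Bglap and Bglap2 were higher in the Lmx1b library under at least 3 of the alternative ways of choosing the cells.

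A wider list of 39 mineralisation genes, all of them in the files, was counted in the same way. In mature against precursor-like cells 12 of 32 measured genes were at least 2-fold higher and 5 lower in the Lmx1b library, and 10 of 32 higher and 5 lower in the Pdgfra library, beside the shares of all genes given above. The list's median fold was 1.75 and 1.68. Higher in both were the osteoblast transcription factor Dlx3 (9.33-fold and 5.64-fold) and the vitamin D receptor Vdr (6.50 and 4.59). So were Fam20c, the kinase that phosphorylates secreted proteins such as the products of Spp1 and Dmp1 (6.70 and 5.35), Smpd3, a sphingomyelinase (3.43 and 4.49), Slc13a5, a citrate carrier (4.78 and 5.31), and Bglap3 (148 and 7.63). Sgms2, Col11a2 and the Wnt inhibitor Dkk1 were also higher. Smpd3, Slc13a5, Sgms2 and Dkk1 are on the marker list that named the mature class, and Col11a2 on the osteoblast list, so their direction follows in part from the naming. Sox9 is on the cartilage list.

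Lower in mature than in precursor-like cells of both libraries were Slc20a1, a phosphate carrier (3.72-fold and 12.7-fold lower), Ank, a membrane protein needed for pyrophosphate release (2.10 and 2.20), Mgp, the matrix Gla protein that inhibits calcification (3.50 and 5.64), Sox9 and Ogn. In cartilage-like against mature cells 5 of 32 were higher and 9 lower in the Lmx1b library, where 5.59% of all genes were higher and 5.85% lower. For the Pdgfra library 6 of 31 were higher and 6 lower, where 6.56% of all genes were higher and 6.61% lower. Mgp was 7.14-fold and 11.2-fold higher in cartilage-like cells. Its levels in cartilage-like and mature cells were 821 and 115 CPM for the Lmx1b and 1150 and 103 CPM for the Pdgfra library. Phospho1, a phosphatase of matrix vesicles, was under the measuring limit in both libraries, at 3.15 and 5.04 CPM in mature cells.

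The genes outside the list whose levels were most like the mean profile of the 9 measured genes were Nupr1 (Pearson's r of 0.90), Col22a1 (0.89), Slc8a3, Sgms2 and Sp7 (0.88 each), over 42 class-by-library levels and among 6123 genes. Col22a1, Sgms2 and Sp7 are also on the marker lists used for naming. Of the 9 genes themselves, Phex (0.91) and Spp1 (0.90) were nearest to that mean and Enpp1 (0.70) farthest. Levels of 1 library share its free RNA and depth, and the values carry no test.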

How the data were processed

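The matrices deposited by the authors held raw UMI counts. Cell Ranger 4.0.0 wrote them, per the file headers, and the genome was mm10 plus tdTomato, per the labels' protocols. How barcodes were chosen as cells is not given in the sources used here. Per the labels, tissue beyond the amputation was digested in 280 µg/ml Liberase and strained at 20 µm.

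A barcode needed 500 genes or more, and no more than 10% of its UMIs mitochondrial. The highest Scrublet scores, 0.8% per 1000 barcodes, were removed as doublets, since the automatic threshold marked 0. Both libraries were clustered together (scanpy 1.11.5, 2000 variable genes, 30 components, Leiden resolution 1.0) and 8 mesenchymal clusters again (20 components). Clusters were named from marker lists without the 10 genes and Bglap3. Counts were summed per library and class into CPM, with exact Poisson intervals (scipy 1.17.1) and exact ratio intervals for folds. Scripts were tested on simulated data. Shares were also taken after thinning to 3000 UMIs per cell. Log2 differences are those of the ratio of CPM, with a side at 0 UMIs set to 3 UMIs. Pearson's r used log2 of CPM plus 1. Summing cells within 1 library per line gives no replicates, so no p-value was computed.

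All 10 genes were described. Genes of the wider list were named where they passed 2-fold in the same direction in both libraries, and Phospho1 outside that rule; 1 gene that met it is not reported here. The members and lists were chosen with earlier results of these data known. Markers Snorc, Trbc1 and Ighd were not among the features used.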

Additional observations from a re-analysis of the deposited data

Results flagged for a closer look

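The Col10a1 over the Sp7 cartilage-like cluster gave folds on opposite sides of 1 in the 2 libraries for 3 genes, and this difference between the libraries was not tested. Alpl was 1.07-fold in the Lmx1b and 0.856-fold in the Pdgfra library. Ibsp was 1.34-fold in the Lmx1b and 0.870-fold in the Pdgfra library. Bglap2 was 1.26-fold in the Lmx1b and 0.462-fold in the Pdgfra library, at 85.5 and 11.8 CPM in the Col10a1 cluster and 68.0 and 25.4 CPM in the Sp7 cluster.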

How the results depend on the processing

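No paired analysis was possible because there was 1 library per line. Over 14 alternative settings, 5 of them chosen after seeing the data, 28 differences of at least 2-fold were recomputed 359 times and reversed 16 times, and 21 of the 28 never reversed. Of 112 counts 3 moved by over 1.5 times. The count of genes apart between the libraries in precursor-like cells, 5, became 3 under a stricter cell filter (1000 genes or more, 5% mitochondrial UMIs or less), and 3 with cells gated on the markers. That in mature cells, 2, became 4 without the 10 mature cells of highest Bglap in each library, a setting that removes cells on the value compared, and a larger share of them in the Pdgfra library, so that no call is read from it. The count higher in mature than precursor-like cells ranged from 5 to 8 in the Lmx1b and 4 to 8 in the Pdgfra library, and that lower in cartilage-like than mature cells from 4 to 6 and 3 to 6.

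Most reversals, given as log2 differences of the Lmx1b over the Pdgfra library, were in precursor-like cells. Under a looser filter (200 genes or more, 25% or less) they were 1.06 for Bglap and 1.19 for Bglap2. Under the stricter filter they were 3.90 for Dmp1, 4.57 for Bglap and 3.60 for Bglap2. With no doublet removal they were 2.10 for Dmp1, 2.06 for Bglap and 3.12 for Bglap2. With each library clustered alone they were 2.04 for Bglap and 3.60 for Bglap2. With gated cells they were 0.82 for Phex, 3.19 for Dmp1 and 1.71 for Bglap2. Between mature and precursor-like cells, Ifitm5 reversed to -0.45 for the Lmx1b and -0.04 for the Pdgfra library under the stricter filter, and Spp1 to -0.38 in the Pdgfra library with the Car3 cluster alone. The cause was not tested. Mepe in every class and Dmp1 in precursor-like cells of the Lmx1b library rest on few UMIs.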
